A study of Mus musculus with 3 samples.

Results

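S100a4, S100a6, S100a10, S100a11 and S100a13 were the 5 S100 genes followed here, out of the 32285 genes counted in single-cell RNA sequencing of mouse peripheral blood mononuclear cells (PBMCs). They were taken by symbol, and they leave out S100a8 and S100a9, the pair that forms calprotectin. The study compared young mice (8 weeks old, untreated), aged mice (16 months old, untreated by the label, while the methods give a phosphate-buffered saline injection for the control of GA) and aged-GA mice (16 months old, given glycyrrhizic acid, GA, for 1 month), all on the C57BL/6 background and all female by the methods of the study. Each group was 1 library. The PBMCs of a group came from several mice, and no cell can be tied to a mouse, so a difference between groups was a difference between 3 libraries, without replicates and without a test. After the cell filter, 8851 young, 10238 aged and 12648 aged-GA cells were kept, with median depths of 4671, 3810.5 and 4752 unique molecular identifiers (UMIs) per cell.

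S100 proteins are small calcium-binding proteins of the EF-hand type. Most form dimers that open a binding surface when they bind calcium, and through it they hold other proteins, often annexins or parts of the cytoskeleton. S100a10 is the exception that no longer needs calcium, and it sits with annexin A2 at the inner face of the cell membrane. S100a4 binds nonmuscle myosin and is known from motile cells. S100a6, also called calcyclin, and S100a11 bind annexins, and S100a13 is known for its part in the release of proteins that lack a signal peptide. In blood, S100 genes are known from myeloid cells and from lymphocytes that have met antigen.

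All 5 genes lie on the plus strand of mouse chromosome 3 in build mm10, in 2 groups. S100a13 spans 90514435 to 90524581, S100a4 spans 90603771 to 90606045 and S100a6 spans 90612882 to 90624181. S100a11, at 93520488 to 93526287, and S100a10, at 93555080 to 93564643, lie together further along. In the annotation, Gm42674 overlaps S100a4 on the same strand, but it was not among the genes counted. The bases before the start of S100a4, S100a6 and S100a11 are shown because S100a6 was most like the other 2 in its levels across cell types. They are the 250 bases upstream of the RefSeq start in GRCm38.p6, 5′ to 3′ on the plus strand, at chr3:90603520-90603769, chr3:90612644-90612893 and chr3:93520246-93520495, with the matches of 5 short motifs in capitals.
S100a4: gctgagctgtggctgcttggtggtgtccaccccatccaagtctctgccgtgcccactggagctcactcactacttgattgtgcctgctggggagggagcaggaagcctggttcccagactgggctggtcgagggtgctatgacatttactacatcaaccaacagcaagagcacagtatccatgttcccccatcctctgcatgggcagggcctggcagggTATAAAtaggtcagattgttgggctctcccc
S100a6: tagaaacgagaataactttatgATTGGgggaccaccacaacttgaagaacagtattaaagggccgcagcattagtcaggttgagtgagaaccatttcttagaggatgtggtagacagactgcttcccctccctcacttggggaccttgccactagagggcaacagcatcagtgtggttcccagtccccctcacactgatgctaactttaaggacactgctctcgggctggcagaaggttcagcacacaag
S100a11: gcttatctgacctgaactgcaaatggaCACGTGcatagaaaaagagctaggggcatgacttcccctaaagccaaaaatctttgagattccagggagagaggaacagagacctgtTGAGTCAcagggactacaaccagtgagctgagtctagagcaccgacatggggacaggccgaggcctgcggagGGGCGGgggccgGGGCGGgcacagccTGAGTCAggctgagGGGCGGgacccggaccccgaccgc
S100a4 held a TATA box (TATAAA) that began 31 bases before its start, a motif that 12.4% of 32851 upstream windows held on either strand. S100a6 held a CCAAT box (33.8% of windows), read on the minus strand and beginning 228 bases before the start. S100a11 held 3 GC boxes (GGGCGG, 32.7%), 2 AP-1 sites (TGANTCA, 6.75%) and 1 E-box (CACGTG, 6.02%), and no match overlapped another. No motif was shared by these windows, and the S100a13 window held none of these letters. The table held 4 of the 5 members, without S100a10. These matches describe the letters only.

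Cells were sorted into classes from UMIs of marker genes, none of them an S100 gene. A cell was, for example, a T cell where it held at least 3 UMIs of Cd3d, Cd3e, Cd3g and Trac and at least 3 times as many as of the markers of any other class. T cells with a Foxp3 UMI were called regulatory and those with a Trdc UMI gamma-delta. The others were called naive (Ccr7, Lef1, Igfbp4, Dapl1, Actn1), memory (Ccl5, Nkg7, Cxcr3, Il2rb, Id2 and others) or in between. The level of a gene is the sum of its UMIs in a class per 1000000 UMIs of that class (CPM), and its 95% interval is the exact Poisson interval, which covers counting error only and is too narrow where few cells hold most UMIs of a gene. These are counts of 3′ ends and were not divided by gene length. Among the levels in the 6 main classes, 64 of 90 rested on at least 400 UMIs, and for those the interval was at most 9.90% wide on either side. Of markers held out of the gates, Cd28, Lck and Bcl11b were highest in naive or memory T cells in each library, and 3 or 4 of 4 monocyte genes and each gene of B cells, NK cells and neutrophils were highest in their own class. Neutrophils and monocytes were rare in the young library (16 and 53 cells) and common in the aged library (898 and 1198 cells), with 599 and 294 in the aged-GA library, although all samples were labelled PBMC. Between 50 and 62 barcodes were shared by each pair of libraries. Free S100a8 RNA stood at 0.0149 UMIs in the mean red-cell barcode of the young library, 0.272 in the aged and 0.193 in the aged-GA library. On the CPM scale, less of a transcript and more of all other transcripts in a cell cannot be told apart.

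S100a4, which binds nonmuscle myosin, was highest in monocytes and nearly absent from naive lymphocytes. Monocytes held 1468 CPM in the young library, 2459.7 CPM in the aged one and 1966 CPM in the aged-GA one. Memory T cells held 813 CPM in the young library, 576 CPM in the aged one and 388 CPM in the aged-GA one, and NK cells held 121, 228 and 222 CPM in the same order. Naive T cells held 3.47 (95% interval 2.62 to 4.52) CPM in the young library, 16.1 (95% interval 11.6 to 21.6) CPM in the aged one and 13.2 (95% interval 10.3 to 16.7) CPM in the aged-GA one. In naive T cells few cells held it, and the 5 cells with the most held 44 of 55 UMIs in the young, 21 of 43 in the aged and 38 of 70 in the aged-GA library. Follicular B cells, gated on Fcer2a and Ighd, were within 2-fold of that, at 4.60, 30.8 and 15.6 CPM. Neutrophils held 226 CPM in the aged library and 173 CPM in the aged-GA one, while the 16 young neutrophils held no UMI, which allows up to 35.0 CPM (3 counts). In each library the order was monocytes, memory T cells, NK cells, B cells and naive T cells, and neutrophils lay beside NK cells in the aged library.

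S100a6 was highest in neutrophils in each library. These held 3309 CPM in the young library, 7243 CPM in the aged one and 4812 CPM in the aged-GA one, and monocytes held 1130.5, 3277 and 1881 CPM. Memory T cells stood at 1029.7, 1746 and 1065 CPM and NK cells at 839, 1711 and 1385 CPM, and the 2 classes had nearly the same level in the aged library. Naive T cells held 9.79 (95% interval 8.31 to 11.5) CPM in the young library, 69.8 (95% interval 60.2 to 80.6) CPM in the aged one and 30.6 (95% interval 26.0 to 35.6) CPM in the aged-GA one. Of these UMIs, 5 young cells held 126 of 155, and without the 5 cells with the most UMIs in each library, a view chosen after the values were seen, the levels were 1.84, 42.2 and 16.0 CPM. B cells split by type. Follicular B cells held 42.3, 108 and 64.8 CPM, whereas B cells gated on Zbtb20, Fcrl5, Zbtb32, Bhlhe41 and Itgax held 1019, 1643 and 844 CPM, and this order was the same in all 3 libraries. The Zbtb20-Fcrl5 B cells were 118 young, 322 aged and 469 aged-GA cells, and 5 of the young ones held 575 of their 839 S100a6 UMIs.

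S100a11 shared the myeloid peak of S100a6 but was present in every lymphocyte class. Neutrophils held 4183 CPM in the young library, 6608 CPM in the aged one and 5491 CPM in the aged-GA one, and monocytes held 641, 1216 and 801 CPM. Memory T cells (565, 660.1 and 434 CPM) and NK cells (561, 527 and 515 CPM) lay within 1.5-fold of each other in each library. Follicular B cells held 260.2, 220.3 and 219.7 CPM and naive T cells 82.0, 139 and 116 CPM, the lowest of the 6 main classes.

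S100a10, the partner of annexin A2, was highest in NK and memory T cells among the 6 main classes. NK cells held 1559 CPM in the young library, 1699 CPM in the aged one and 1507 CPM in the aged-GA one, and memory T cells held 1446, 1735 and 1086 CPM. Neutrophils, the class with the most S100a6 and S100a11, held 93.2 (95% interval 40.2 to 184) CPM in the young library, 179 (95% interval 164 to 195) CPM in the aged one and 229.7 (95% interval 211 to 249) CPM in the aged-GA one. Naive T cells held 237, 376 and 343 CPM and follicular B cells 357, 386 and 373 CPM. Monocytes ranged from 237 CPM in young to 824 CPM in aged mice.

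S100a13, a gene known from protein release, spanned the narrowest range of levels over these classes in each library. NK cells held 337 CPM in the young library, 410.0 CPM in the aged one and 399.5 CPM in the aged-GA one, and memory T cells held 272, 344 and 240.1 CPM. Naive T cells (99.9, 128 and 111 CPM) and neutrophils (104 CPM in the aged library and 104 CPM in the aged-GA one) were close to each other. B cells were lowest, at 61.5, 81.2 and 71.5 CPM.

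**Figure D1:**
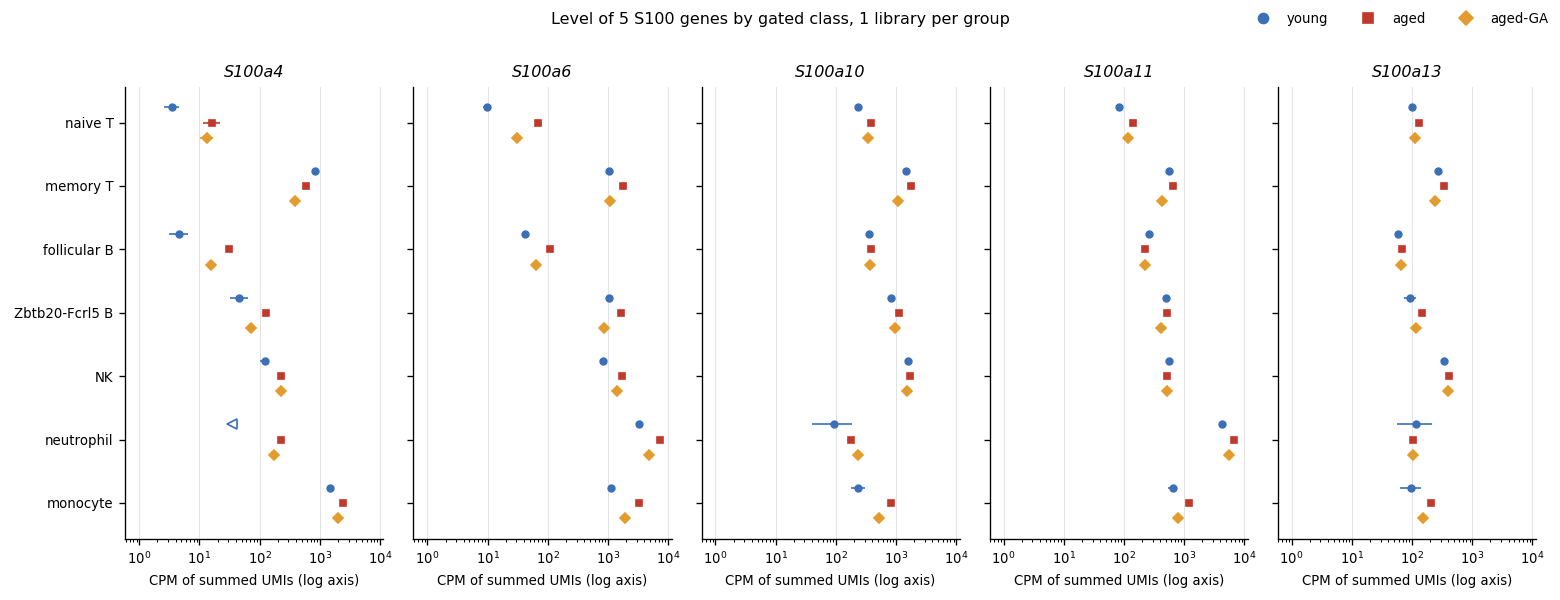
Level of each gene (x axis, CPM on a log axis) in 7 gated classes (rows) of the young, aged and aged-GA libraries. Points are sums over cells, bars are exact Poisson 95% intervals, and the open triangle marks the upper limit of 3 counts for S100a4 in the 16 young neutrophils. S100a6 and S100a11 peak in neutrophils, S100a4 in monocytes, and S100a10 and S100a13 in NK and memory T cells.

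Which cells held the UMIs of these genes differed between the libraries, along with the cells themselves. In the young library T cells held 78.3% of all S100a4 UMIs and 58.7% of all UMIs. In the aged library monocytes held 67.0% of S100a4 UMIs and T cells 10.3%. In the aged-GA library T cells held 36.9% and monocytes 26.2%. Neutrophils held 3.84% of S100a11 UMIs in the young library, 39.5% in the aged one and 36.5% in the aged-GA one. Over all kept cells the levels of S100a4 were 84.2, 703 and 208 CPM and those of S100a11 194, 949 and 488 CPM. Levels over all kept cells depend on the mix of classes as well as on the level within each class, so the later comparisons were made within a class. Cells without a class, most of them holding markers of more than 1 class, kept 7.08%, 17.2% and 26.8% of the S100a4 UMIs.

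The first question was how the members differed between naive and memory T cells of the same library, which share handling and free RNA. All 5 members were past 2-fold higher in memory T cells in each of the 3 libraries. Among all genes with at least 100 UMIs over both sums, 6.23% were past 2-fold in either direction in the young library, 9.3% in the aged one and 7.49% in the aged-GA one. The log2 ratios of S100a4, computed on CPM with a pseudocount of 1, were 7.51 in the young library, 5.08 in the aged one and 4.78 in the aged-GA one. They rest on 55, 43 and 70 UMIs in naive T cells. Over the alternatives they ran from 5.93 to 10.3, 4.15 to 7.04 and 3.88 to 6.71. Free S100a4 differed between libraries, at 0.00319, 0.0383 and 0.0207 UMIs per red-cell barcode beside 0.0174, 0.0768 and 0.0745 per naive T cell. The ratios of S100a4 are therefore not compared between libraries. Those of S100a6 were 6.58, 4.62 and 5.08, so S100a4 and S100a6 had the largest ratios in each library. S100a10 had log2 ratios of 2.61, 2.20 and 1.66, and S100a11 had 2.77, 2.24 and 1.90. S100a13 had the smallest, 1.43, 1.41 and 1.11, and the last of these was 0.98 when the gates were loosened to 1.5 times the other markers. The median over the members was 2.77, 2.24 and 1.90, beside 0.076, 0.15 and 0.077 over all genes tested.

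The members differed in how they were low in naive T cells. S100a10 was still found in most of them, and S100a4 and S100a6 in few. Without thinning, 62.5%, 71.1% and 75.9% of young, aged and aged-GA naive T cells held a S100a10 UMI. With each cell thinned to 1000 UMIs, 19.5% (18.1 to 20.9) of young naive T cells and 55.5% (49.9 to 60.9) of young memory T cells held a S100a10 UMI (exact binomial 95% intervals, counting error only). For S100a6 these shares were 0.349% (0.174 to 0.623) and 27.7% (23.0 to 32.9). In the aged library 4.11% (2.63 to 6.11) of naive and 64.1% (60.8 to 67.2) of memory T cells held S100a6, and in the aged-GA library 2.34% (1.47 to 3.52) and 52.7% (50.2 to 55.2). Unthinned, 0.919%, 16.1% and 8.94% of naive T cells held S100a6, at median depths of 4832, 4566 and 5391 UMIs. Thinning left out 2, 1 and 0 naive T cells and 1, 0 and 2 memory T cells of the young, aged and aged-GA libraries.

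Within memory T cells, those with Cd4 UMIs held more of each member than those with Cd8a or Cd8b1 UMIs, in each library. For S100a4 memory CD4 T cells held 1222, 1367 and 1345 CPM and memory CD8 T cells 232, 318 and 130.0 CPM. For S100a10 the levels were 2225, 2826 and 2007 CPM and 828, 1365 and 849 CPM. The young library held only 37 memory CD4 T cells, so no ratio to it was formed. Regulatory T cells of the aged library had the highest T-cell levels of S100a4 (2103 CPM), S100a6 (3760.4 CPM), S100a10 (4091 CPM) and S100a11 (1412 CPM). In gamma-delta T cells (231 young, 71 aged and 128 aged-GA) S100a4 was highest in young mice, at 642, 221 and 410.4 CPM, while S100a6 was nearly level, at 824, 810.5 and 799.6 CPM. Memory CD8 T cells with a Gzmk UMI, a split chosen after the values were seen, held more of each member than those without one in each library. For S100a4 the levels with Gzmk were 945, 619 and 475 CPM in 14, 118 and 155 cells, and without it 172, 232 and 82.4 CPM.

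**Figure D2:**
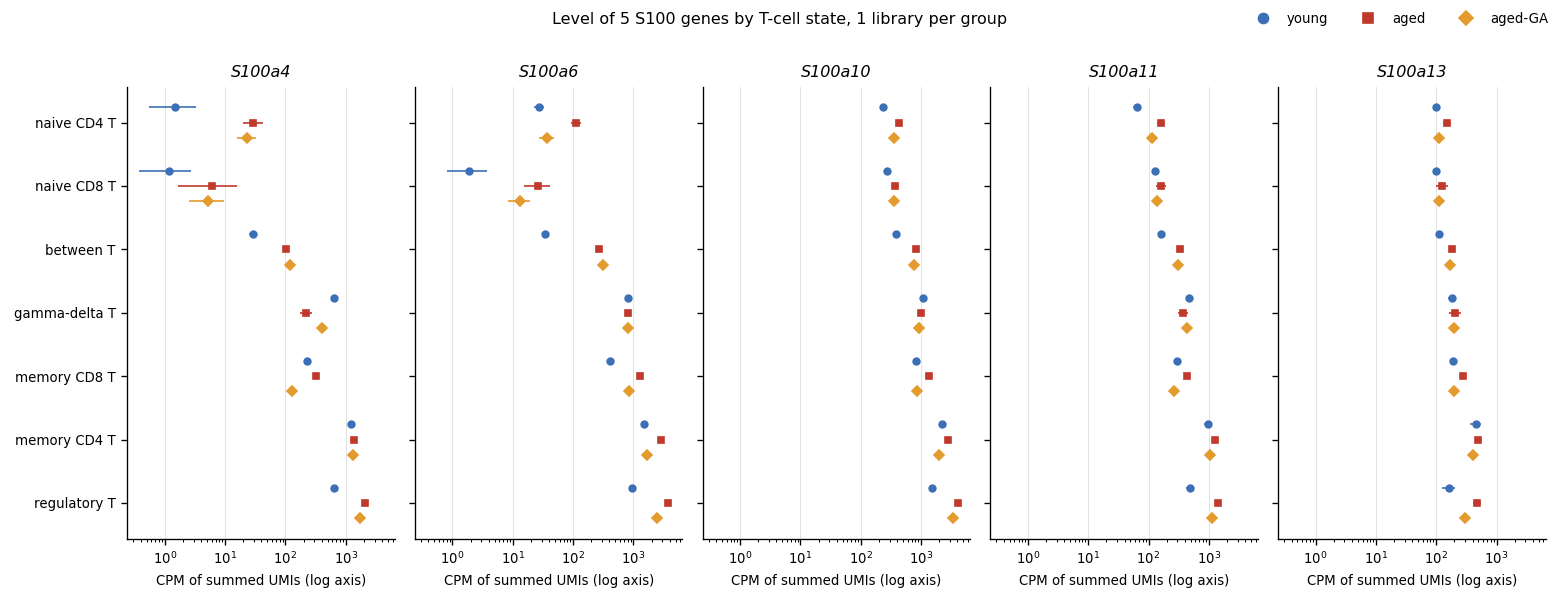
Level of each gene (x axis, CPM on a log axis) in 7 T-cell states (rows) of the 3 libraries, with exact Poisson 95% intervals. S100a4 and S100a6 are lowest in naive CD8 T cells, where S100a4 stands at 1.17, 6.12 and 5.24 CPM, and highest in regulatory and memory CD4 T cells of the aged and aged-GA libraries.

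S100a4 and S100a6 were also found in the same single cells. Among aged memory CD8 T cells thinned to 1000 UMIs, 80.4% (70.9 to 88.0) of those with a S100a4 UMI held S100a6, against 57.2% (52.1 to 62.2) of those without. In young mice the shares were 47.8% and 10.8%, and in aged-GA mice 73.6% and 44.1%. NK cells of these libraries showed the same order, with 76.0% against 35.7% in young and 83.7% against 58.7% in aged mice. In aged-GA mice it was 75.9% (56.5 to 89.7) of 29 NK cells against 56.9% (50.3 to 63.4), with overlapping intervals. For S100a11 and S100a6 the shares differed between classes and between libraries. In aged memory CD8 T cells 66.5% of cells with and 59.2% without a S100a11 UMI held S100a6, with overlapping intervals. In aged memory CD4 T cells these shares were 76.8% and 45.6%, in aged regulatory T cells 86.5% and 44.0%, in aged Zbtb20-Fcrl5 B cells 46.2% and 25.8% and in aged monocytes 86.6% and 70.1%. Aged NK cells had the other order, 52.6% with and 68.7% without. Young NK cells had 42.6% with and 35.9% without, and aged-GA ones 67.6% and 53.5%, and intervals overlapped in each library. In the aged-GA library the shares were 62.4% and 54.7% in memory CD4 T cells and 52.5% and 45.8% in memory CD8 T cells. They were 25.6% and 19.6% in Zbtb20-Fcrl5 B cells and 67.7% and 59.9% in monocytes, all with overlapping intervals. Aged-GA regulatory T cells had 77.8% and 26.5%, with intervals apart.

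The second question was how the aged and young libraries differed within a class. In naive T cells (3157 young, 560 aged and 940 aged-GA), 1 of the 4 members with at least 100 UMIs was past 2-fold, beside 4.06% of 7710 genes tested. This was S100a6, with a log2 ratio of 2.72 (counting interval 2.52 to 3.15), and 3.93 without the 5 cells with the most S100a6 in each library. Those cells held 126 of 155 young and 75 of 187 aged UMIs, so leaving them out raises the ratio. Itgb1 and Cd44, memory markers held out of the gates, had log2 ratios of 1.54 and 1.21 in the same gate. Whether the S100a6 difference lay in naive cells or in memory cells within the gate was not tested. S100a4 had a log2 ratio of 1.93 but only 98 UMIs over both libraries. S100a10, S100a11 and S100a13 had log2 ratios of 0.67, 0.75 and 0.36. The median log2 ratio of aged over young over all genes tested was 0.21 here, 0.27 in memory T, 0.30 in memory CD8 T, 0.23 in regulatory T, 0.25 in B and 0.15 in Zbtb20-Fcrl5 B cells, and centring on it changed no count of members past 2-fold by over 1.5 times.

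In memory T cells none of the 5 members was past 2-fold, beside 6.26% of all genes, and S100a4 was lower in aged mice, with a log2 ratio of -0.50 (counting interval -0.58 to -0.41). The mix of CD4 and CD8 cells in this class differed between the libraries, so CD8 cells were read alone. Memory CD4 T cells held 1222 CPM of S100a4 in young and 1367 CPM in aged mice, and memory CD8 T cells 232 and 318 CPM. Neither was lower in aged mice. Young memory T cells held 1778 S100a4 UMIs, with 252 in CD4 and 313 in CD8 cells. Most of them therefore lay in the remaining cells, gated as neither CD4 nor CD8. Aged memory T cells held 2791, with 1154 in CD4 and 900 in CD8 cells, so most lay in the gated cells. The lower level of the whole class lay in the remaining cells, and its cause was not tested. In memory CD8 T cells S100a6 was past 2-fold higher in aged mice, at 408, 1306 and 835 CPM in young, aged and aged-GA mice, beside 7.53% of all genes past 2-fold. Its log2 ratio of aged over young was 1.68 (counting interval 1.55 to 1.81). The other 4 members had log2 ratios between 0.45 and 0.72. In the young library 5 of 180 cells held 186 of 313 UMIs of S100a4. In the aged library 5 of 473 cells held 180 of 900. Without the 5 cells with the most UMIs of a member in each library, S100a6 had 2.45, S100a4 1.38 and S100a10 1.02. S100a11 and S100a13 had 0.75 and 0.73. These cells were picked by the same UMIs and took a larger share from the young library, which raises each ratio. The values are a description and were not counted as past 2-fold. After thinning, 15.6% (10.6 to 21.7) of young and 61.7% (57.2 to 66.1) of aged memory CD8 T cells held a S100a6 UMI.

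All 5 members were past 2-fold higher in aged than in young regulatory T cells, beside 12.4% of the 980 genes tested there. Log2 ratios ran from 1.45 for S100a10 to 2.01 for S100a6. These were small groups (80 young, 62 aged and 61 aged-GA cells), and their state differed. In the young library 38 of 80 regulatory T cells held more UMIs of naive than of memory markers, against 6 of 62 in the aged library and 14 of 61 in the aged-GA library. The remaining cells numbered 42, 56 and 47. The young ones were under the 50 cells needed for a ratio, so only levels are given. S100a4 stood there at 1095, 2267 and 2197 CPM, S100a11 at 791, 1519 and 1353 CPM and S100a13 at 212, 506 and 339 CPM. Among all 80 young regulatory T cells, 5 held 205 of 269 UMIs of S100a4, and 5 held 306 of 390 of S100a6. In the remaining cells all 5 members were higher in aged than in young mice. S100a6 stood there at 1619, 4051 and 3027 CPM and S100a10 at 2309.8, 4385 and 4131 CPM. S100a6 was found, unthinned, in 14 of the 80 young regulatory T cells, against 50 of the 62 aged ones and 39 of the 61 from aged-GA mice. The split by markers was chosen after the values were seen.

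In B cells S100a4 and S100a6 were past 2-fold higher in aged mice and the other 3 were not, beside 4.44% of all genes. S100a4 stood at 8.39, 45.8 and 23.1 CPM, a log2 ratio of 2.32 (counting interval 2.11 to 2.81), and S100a6 at 138, 330.4 and 167 CPM, a log2 ratio of 1.26 (counting interval 1.17 to 1.35). S100a11 had a log2 ratio of -0.12. The same 2 members were past 2-fold in follicular B cells (4.45% of all genes), with log2 ratios of 2.51 for S100a4 and 1.34 for S100a6. In young B cells 5 cells held 50 of 77 UMIs of S100a4 and 594 of 1263 of S100a6. In young follicular B cells 5 held 23 of 31 and 136 of 285, and in aged ones 106 of 347 and 260 of 1219. In Zbtb20-Fcrl5 B cells (4.35% of all genes) only S100a4 was past 2-fold, with a log2 ratio of 1.46 on 260 and 38 UMIs, and with strict gates it was 0.98. In the young library 5 of these cells held 36 of 38 UMIs of S100a4 and 575 of 839 of S100a6. Without the 5 cells with the most UMIs of a member in each library, S100a6 had 1.76 and S100a4 4.20, the latter on 134 UMIs over both. In the aged library those 5 cells held 128 of 260 UMIs of S100a4 and 1041 of 3325 of S100a6. Leaving them out took a larger share from the young library, which raises both ratios. Without a limit on mitochondrial share, the log2 ratio of S100a6 was 0.95 in B cells and 0.76 in follicular B cells, both below 2-fold.

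In NK cells S100a6 was the member past 2-fold, beside 2.55% of all genes, with a log2 ratio of 1.03 (counting interval 0.91 to 1.15). It was 0.91 when no UMI of another class was allowed and 0.98 without the 5% of cells with the most UMIs, both just under 2-fold. S100a4 had 0.91, and S100a10, S100a11 and S100a13 lay between -0.09 and 0.28. Late NK cells held more UMIs of Itgam, Klrg1, Zeb2 and Cma1 than of Cd27, Emb, Ltb and Xcr1, and early ones fewer. In late NK cells (247 young and 225 aged) S100a6 stood at 1002 and 1838 CPM, less than 2-fold apart. In the few early ones (42 and 32 cells) it stood at 315 and 1292 CPM. In monocytes S100a6, S100a10 and S100a13 were past 2-fold higher in aged mice, with log2 ratios of 1.53, 1.79 and 1.10, but 20.8% of all genes were past 2-fold in one direction or the other, and the kinds of monocyte differed. Of the 53 young monocytes 49 were nonclassical, with more UMIs of Ace, Cd300e, Treml4 and Eno3 than of Ly6c2, Ccr2, F13a1 and Vcan, against 432 of 1198 in the aged library. Within nonclassical monocytes S100a6 stood at 903, 1113 and 779 CPM, S100a10 at 159, 110.1 and 95.3 CPM and S100a13 at 86.0, 138 and 119 CPM. Each was less than 2-fold apart between young and aged mice. The young S100a10 value rested on 37 UMIs in 49 cells, and its interval (112 to 219 CPM) overlapped the aged one (96.8 to 125 CPM). S100a4 stood at 1282, 1312 and 1249 CPM. Classical monocytes of the aged library held 2774 CPM of S100a4, 3875 CPM of S100a6 and 1026 CPM of S100a10. The mix of monocytes and the age of the mice cannot be told apart for the whole class.

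**Figure D3:**
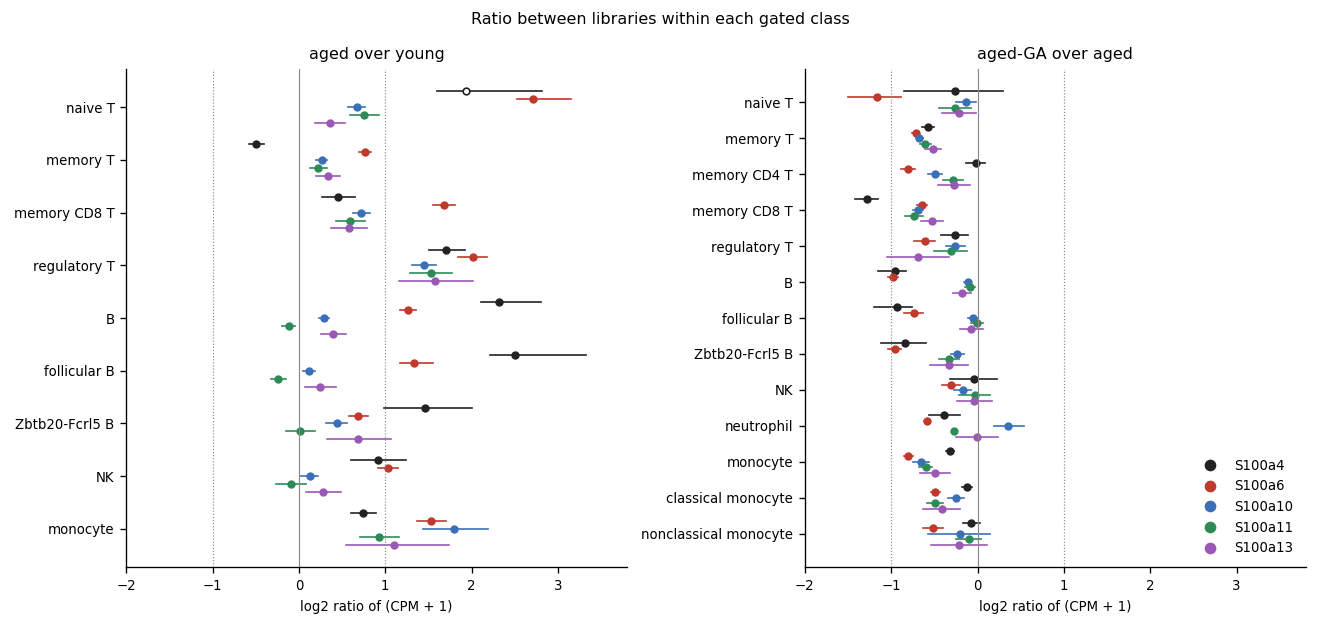
Log2 ratio of (CPM + 1) of each member (colours) in each class (rows), for aged over young (left) and aged-GA over aged (right). Bars are 95% counting intervals of the ratio of the 2 sums without the pseudocount, dotted lines mark 2-fold, and the open circle marks the value with under 100 UMIs. Among the classes shown, S100a6 and S100a4 hold most values past 2-fold on the left. Only S100a6 in naive T cells and S100a4 in memory CD8 T cells pass it on the right. Gamma-delta T cells and T cells in between are not shown.

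The third question was how the aged-GA and aged libraries differed. These values share the aged library with the comparison of age. Of the 5 members, S100a6 in naive T cells and S100a4 in memory CD8 T cells were past 2-fold, and both were lower in aged-GA mice. S100a6 in naive T cells had a log2 ratio of -1.17 (counting interval -1.5 to -0.88), beside 0.213% of all genes past 2-fold in this class. It was under 2-fold with strict gates (-0.74), loose gates (-0.92), a pseudocount of 10 CPM (-0.98) and gates read from 2000 UMIs a cell (-0.50). S100a4 in memory CD8 T cells had a log2 ratio of -1.28 (counting interval -1.42 to -1.16), beside 1.03% of all genes, and it stayed past 2-fold under all alternatives run (-1.51 to -1.01). Aged cells with a Gzmk UMI held 619 CPM of it and aged-GA ones 475 CPM, and cells without one held 232 and 82.4 CPM. Gzmk UMIs were found in 24.9% of aged and 15.9% of aged-GA memory CD8 T cells, at median depths of 5519 and 7690 UMIs per cell.

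In memory CD4 T cells S100a4 differed little, with a log2 ratio of -0.023 (counting interval -0.13 to 0.084), while S100a6 had -0.80, and none of the 5 was past 2-fold (0.339% of all genes). Over all memory T cells the 5 members had log2 ratios from -0.71 to -0.52, none past 2-fold (0.743% of all genes), with a median of -0.61 beside -0.084 over all genes. Over the alternatives the smallest in size were -0.33 for S100a4, -0.60 for S100a6, -0.29 for S100a10, -0.21 for S100a11 and -0.13 for S100a13. The mix of this class differed as well. Memory CD8 cells were 22.5% of aged and 28.1% of aged-GA T cells, and memory CD4 cells 9.19% and 8.26%. In regulatory T cells all 5 were lower in aged-GA mice by less than 2-fold (0.588% of all genes), and S100a13 had the largest log2 ratio in size, -0.69 (counting interval -1.05 to -0.33).

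B cells of the aged-GA library came close to the limit without passing it. S100a4 had a log2 ratio of -0.96 (counting interval -1.15 to -0.83) and S100a6 of -0.98 (counting interval -1.04 to -0.92), beside 0.195% of all genes past 2-fold. Under strict gates both passed it (-1.64 and -1.5). None of the 5 was past 2-fold in follicular B cells (0.301% of all genes) or in Zbtb20-Fcrl5 B cells (0.31%), where S100a6 had -0.73 and -0.96. S100a10, S100a11 and S100a13 had log2 ratios between -0.18 and -0.09 over all B cells.

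NK cells differed least. Their log2 ratios ran from -0.31 for S100a6 to -0.033 for S100a11, with none past 2-fold (0.397% of all genes). In neutrophils, likewise with none past 2-fold (1.54% of all genes), S100a6 had -0.59 (counting interval -0.62 to -0.56), S100a11 had -0.27 and S100a10 had 0.36. Among T-cell markers, Cd28 (10.8 against 49.5 CPM), Lck (7.55 against 23.1 CPM) and Bcl11b (6.89 against 35.3 CPM) were also higher in aged-GA than in aged neutrophils, with the aged value first. With strict gates, which leave out neutrophils with a UMI of another class's gate markers, the ratio of S100a10 was -0.38. In monocytes S100a6 had -0.80 with none of the 5 past 2-fold (1.68% of all genes). Split by type, S100a6 had -0.49 in classical (1.19% of all genes past 2-fold) and -0.51 in nonclassical monocytes (0.464%), and S100a4 had -0.12 and -0.071, with none of the 5 members past 2-fold in either type.

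Over all T cells the members differed between the libraries, and so did the mix of T-cell states. Naive cells made up 60.1%, 26.7% and 27.1% of young, aged and aged-GA T cells, and memory cells 6.27%, 43.2% and 46.0%. S100a4 in all T cells stood at 112, 357 and 263 CPM. With the naive, memory and other T cells of each library weighted as in the young library, it stood at 167 CPM in the aged library and 131 CPM in the aged-GA one, and with 7 states weighted, 121 and 121 CPM. Its log2 ratio of aged over young went from 1.66 to 0.57 and 0.10. That of S100a6 went from 2.76 to 1.5 and 1.21, past 2-fold under each weighting. The others were between 0.49 and 0.68 with 7 states weighted. For S100a4 the weighted level sums states that differed in both directions between young and aged mice. It stood at 28.8 and 103 CPM in T cells in between and at 643 and 2103 CPM in regulatory T cells. In gamma-delta T cells it stood at 642 and 221 CPM. The small weighted ratio is therefore not a lack of difference within the states. For aged-GA over aged, S100a6 went from -0.59 to -0.33 with 7 states weighted.

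**Figure D4:**
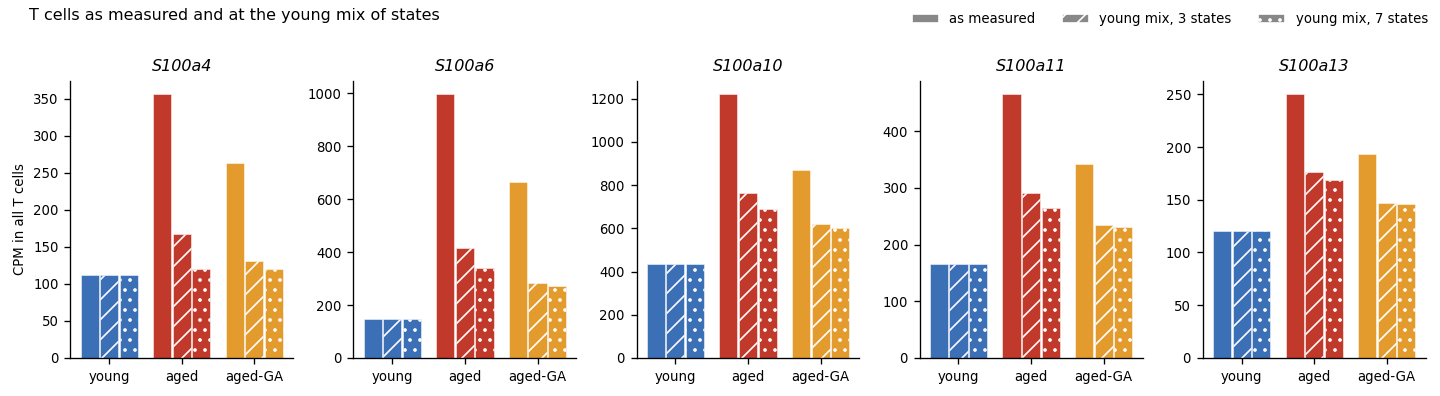
CPM of each gene in all T cells (y axis, from 0) of the 3 libraries. Plain bars are as measured and hatched and dotted bars are the same levels with 3 or 7 T-cell states weighted as in the young library. The aged S100a4 bar drops from 357 to 121 CPM, near the young 112 CPM, although single states differ from young mice in both directions. The aged S100a6 bar stays above the young one.

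Low levels were read beside free RNA, measured in barcodes with under 200 genes and over 50% haemoglobin UMIs. S100a4 stood at 0.00319 (0.000657 to 0.00932) UMIs per such barcode in the young library, 0.0383 (0.0333 to 0.0438) in the aged one and 0.0207 (0.0164 to 0.0258) in the aged-GA one. Naive CD8 T cells held 0.00674, 0.0354 and 0.0345 UMIs of S100a4 per cell, and S100a8, which T cells should lack, was found in them at 0.0108, 0.239 and 0.31 UMIs per cell. For each UMI of S100a8, aged red-cell barcodes held 0.141 (0.121 to 0.163) and aged naive CD8 T cells 0.148 (0.0377 to 0.425) UMIs of S100a4, and in aged-GA mice these were 0.107 and 0.111. The naive CD8 T values rest on 4 aged and 10 aged-GA UMIs of S100a4, and the aged interval also holds the naive CD4 T and follicular B values given next. The S100a4 of naive CD8 T cells in both aged libraries could not be told apart from free RNA. It is not read as expression or as a difference from young mice. Naive CD4 T cells were above the ratio of red-cell barcodes, with 0.418 (0.259 to 0.659) in the aged library and 0.446 (0.287 to 0.681) in the aged-GA one, but 5 cells held 21 of 28 and 27 of 33 UMIs. Follicular B cells were above it too, with 0.305 (0.27 to 0.344) and 0.208 (0.184 to 0.236).

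S100a6 was above free RNA in follicular B cells, where 0.166, 0.377 and 0.289 UMIs per cell stood beside 0.00425, 0.0885 and 0.0546 per red-cell barcode. With these means subtracted, its log2 ratio of aged over young in follicular B cells was 0.99, just under 2-fold, and that of S100a4 was 2.12. In naive CD8 T cells of the aged-GA library S100a6 stood in the same ratio to S100a8 (0.278) as in red-cell barcodes (0.283). In the aged library the ratio was 0.63 (0.322 to 1.20) against 0.325 (0.293 to 0.36). Over all naive T cells S100a6 stood at 0.0491, 0.334 and 0.172 UMIs per cell, so part of its aged and aged-GA level may be free RNA. For each UMI of S100a8 they held 1.04 (0.842 to 1.28) in the aged and 0.574 (0.471 to 0.699) in the aged-GA library, above red-cell barcodes. S100a10 and S100a11 of naive T cells lay well above free RNA, with 1.80 and 0.664 UMIs per aged cell beside 0.0615 and 0.0718 per red-cell barcode. S100a13 was unlike the others, since young red-cell barcodes held 0.189 (0.162 to 0.219) UMIs of it, more than aged (0.0451) or aged-GA (0.0365) ones, and close to the 0.225 per young follicular B cell. It was left out of the subtraction for that reason.

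**Figure D5:**
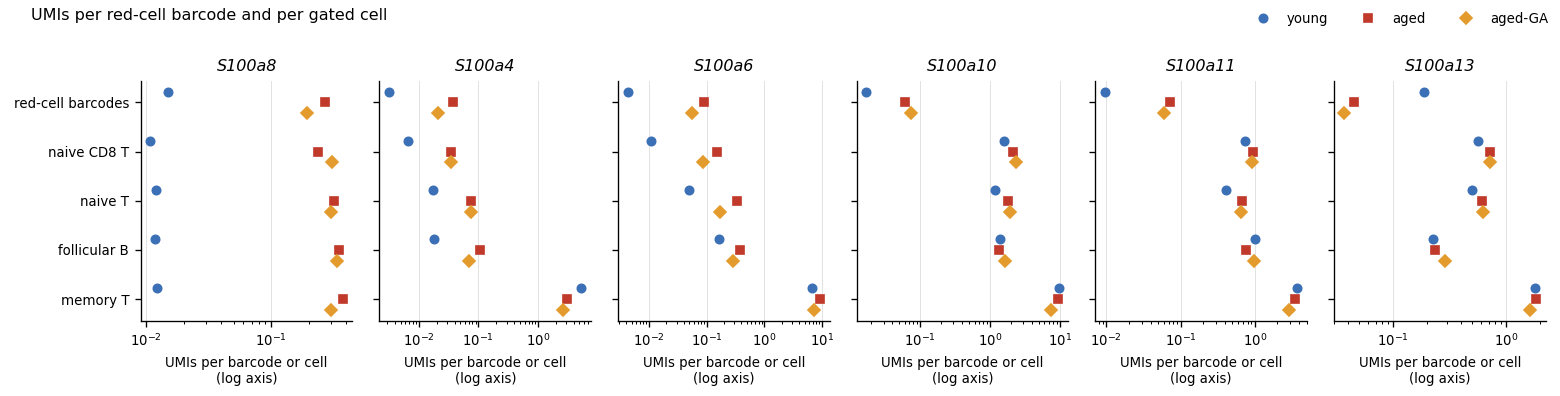
UMIs per red-cell barcode and per gated cell (x axis, log axis) of S100a8 and the 5 members, by library. S100a8 lies within 2-fold of its red-cell value in each lymphocyte class shown, S100a4 of naive CD8 T cells lies near its red-cell value in the aged library, and S100a10 and S100a11 lie far above theirs.

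Genes whose products are known to bind S100 proteins, and genes known from activated or memory lymphocytes, were listed with earlier results of these data known. The shares of all genes past 2-fold between memory and naive T cells, given above, were 6.23%, 9.3% and 7.49%. Of the 17 partner genes, 13 had at least 100 UMIs in young T cells, of which 3 were past 2-fold higher and 1 lower in memory than in naive T cells. In the aged and aged-GA libraries 5 of 14 were higher and 1 lower. Anxa2, the annexin that S100a10 binds, had log2 ratios of 5.12, 4.38 and 3.64, and Ahnak, a giant protein that binds the S100a10 and annexin A2 complex, had 4.56, 3.99 and 3.85. Myh9, the nonmuscle myosin heavy chain that S100a4 binds, had 0.10, 0.21 and 0.14, and Cacybp, named for binding calcyclin, 0.093, 0.14 and -0.0059. The lower one was Plaur, the urokinase receptor, at -2.09, -1.61 and -2.28. Of the 15 activated or memory lymphocyte genes, 9 of 14, 9 of 14 and 8 of 15 were past 2-fold higher in memory T cells and none lower, with Lgals1, galectin-1, at 4.43, 4.61 and 3.93.

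In aged over young naive T cells 1 of 12 partners (Ahnak) and 3 of 12 lymphocyte genes (Itgb1, Cd44 and Capg) were past 2-fold higher. None was lower, beside 4.06% of all genes past 2-fold in either direction. In aged over young memory CD8 T cells 2 of 12 partners and 2 of 12 lymphocyte genes were past 2-fold higher and none lower. This stood beside 7.53% of all genes past 2-fold in either direction. The medians were 0.59 and 0.67 beside 0.30 over all genes. In aged-GA over aged memory CD8 T cells no partner was past 2-fold and 1 of 14 lymphocyte genes was lower, beside 1.03% of all genes past 2-fold, with medians of -0.17 and -0.50 beside -0.088. Of the other 13 symbols that begin with S100, the calprotectin genes S100a8 and S100a9 were abundant, S100pbp, which names a binding protein, had 10.9 to 16.8 CPM over all kept cells, and S100a1 had 1.45, 13.1 and 4.10 CPM in young, aged and aged-GA mice. The remaining 9 each had at most 19 UMIs in any library.

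The genes most like each member were ranked by Pearson's r of log2(CPM + 1) over 60 sums of a class in a library, among 5409 genes. These sums share cells where a class lies within another, and they share library and depth, so r is a description. For S100a4 they were Ccr2 (0.88), Ttc39c (0.86), Itgb1 (0.85), Ahnak (0.82) and H1f0 (0.82). Ccr2, the monocyte chemokine receptor, is itself a marker used in the gates. For S100a6 they were Anxa2 (0.93), Stx11 (0.89), Prr13 (0.89), S100a11 (0.88) and Cd44 (0.87). For S100a10 they were Anxa6 (0.91), Ebpl (0.86), Lgals1 (0.86), Krtcap2 (0.84) and Cenpw (0.83). For S100a11 they were Txn1 (0.93), Stx11 (0.92), Dhrs7 (0.91), Glrx (0.91) and Prr13 (0.90), and for S100a13 H2afz (0.93), Kcnab2 (0.91), Pycard (0.89), Abracl (0.89) and Lgals1 (0.88). Among the members, S100a6 and S100a11 were most alike (0.88), then S100a4 and S100a6 (0.81) and S100a10 and S100a13 (0.78), and S100a10 and S100a11, neighbours on the chromosome, were least alike (0.16).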

How the data were processed

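Single-cell 3′ libraries of PBMCs from young, aged and aged-GA mice were analysed, 1 library per group. The authors deposited a filtered matrix of raw UMI counts per gene and barcode for each library, made with Cell Ranger 5.0.0 per the file headers, with mm10 named in the submitters' processing notes. The libraries held 58894294, 82260961 and 98155671 UMIs in 10842, 16038 and 17332 barcodes. Following the filter in the study's methods, barcodes with at least 200 genes, a gene number under 90% of the maximum for that library and a mitochondrial share of up to 7.5% were kept, and cells with over 50% haemoglobin UMIs were left out of the gates. The filter leaves another number of cells than the study states for each group. Cells were gated on marker UMIs, cells with mixed markers stayed without a class, and no doublet caller was run, so doublets were treated by this and by leaving out the 5% of cells with the most UMIs as an alternative. The UMIs of a class were summed per library and scaled to CPM, with exact Poisson intervals, and shares of cells were given exact binomial (Clopper-Pearson) intervals. Log2 ratios used a pseudocount of 1 CPM, needed 50 cells in both sums, and were counted as past 2-fold only with 100 UMIs over both sums. With 1 library per group no p-value was computed. Intervals and limits cover counting error only.

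The named genes were the 5 members, the other S100 genes, the partner and lymphocyte lists, the markers, and for each member the 5 genes with the highest correlation. The members, lists and tests were chosen with earlier results of these data known. In all, 14 alternatives were run on the ratios, of which free RNA subtraction was chosen after seeing the data, and the weighting of 7 T-cell states, the splits of regulatory and memory CD8 T cells and the levels without the 5 cells with the most UMIs of a member were also added after seeing the data. The scripts were tested on simulated data. Python 3.11.15, numpy 2.4.6, scipy 1.17.1, pandas 2.3.3 and matplotlib 3.10.9 were used. Upstream sequences were taken from RefSeq by gene symbol.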

Additional observations from a re-analysis of the deposited data

How the results depend on the processing

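Of 125 pairs of a member and a comparison, 33 were past 2-fold, 8 of these were no longer counted in at least 1 of 14 alternatives (1 of them for too few UMIs), and 14 others passed it in at least 1. No ratio past 2-fold changed its sign, and in memory over naive T cells the counts stayed within 1.5 times the main count under each alternative. Each group was 1 library, so the spread between mice or libraries is not measured, and levels under about 100 UMIs are limited by depth. For aged over young, 2 members in naive T cells were past 2-fold without a mitochondrial limit, with loose gates, with gates read from 2000 UMIs and with a minimum of 20 UMIs. It was 1 in memory T cells with loose gates, 1 in B cells and 1 in follicular B cells without a mitochondrial limit, and 1 in follicular B cells with free RNA subtracted. It was 0 in Zbtb20-Fcrl5 B cells with strict gates, 0 in NK cells with strict gates or without the 5% of cells with the most UMIs, 2 in NK cells with gates read from 2000 UMIs, and 5 in monocytes without the 5% of cells with the most UMIs. For aged-GA over aged, it was 0 in naive T cells with strict gates, loose gates, gates read from 2000 UMIs and a pseudocount of 10 CPM, and 1 in memory CD4 T cells with gates read from 2000 UMIs. In B cells it was 1 without a mitochondrial limit and 2 with strict gates, and in follicular B cells 2 with strict gates. In Zbtb20-Fcrl5 B cells it was 2 without a mitochondrial limit, and 1 with strict gates, with loose gates, without the 5% of cells with the most UMIs and with gates read from 2000 UMIs. In monocytes it was 1 with strict gates, S100a6 at -1.22. S100a13 in aged over young monocytes was 0.99 as the mean over cells, and S100a6 in naive T cells was 4.41 with strict gates but under 100 UMIs. The cause of these differences was not tested. Strict gates left under 50 cells in memory CD8 T cells, regulatory T cells and monocytes for aged over young, and in memory CD4 T cells, regulatory T cells and both kinds of monocyte for aged-GA over aged. Gates read from 2000 UMIs did so in regulatory T cells for both and in monocytes for aged over young. No paired analysis was possible because each group was 1 library and no result came from a test.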
